A study of Cucumis sativus with 6 samples.

Results

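The CASP-like proteins are plant membrane proteins related to the scaffold of the Casparian strip, the lignin band that seals the cell walls of the root endodermis. In Arabidopsis the Casparian strip membrane proteins (CASPs) mark a strip of plasma membrane and gather the peroxidases, dirigent proteins and oxidases that build lignin there. Most CASP-like relatives lie in other tissues, and a wall function is known for few of them. A fruit peel carries a barrier of another kind, the cuticle of cutin and wax.

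The 10 genes described here were chosen by measured values, as the most abundant of the 29 genes with a CASP-like product name, out of 21317 genes in all, by their mean level over 6 libraries. The level was in FPKM; FPKM scales the fragments of a gene by its length and by the depth of the library. Those means ran from 53.9 FPKM for Csa3G151500 to 10.9 FPKM for Csa2G179230, the last gene inside the limit, and the first gene outside it, Csa4G296310, was at 10.3 FPKM. The chosen means are therefore a description and not a result. All 29 genes, and 32 genes of the table in all, carried the protein family entry IPR006702. The other 3 bore the product name Casparian strip membrane protein. The files hold no sequence, and none is printed.

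Peel and flesh of the cucumber (Cucumis sativus) inbred line YB were dissected from self-pollinated fruits of 3, 6 and 9 days. The 6 libraries comprised peel at days 3, 6 and 9 and flesh at days 3, 6 and 9, with 3 fruits mixed in each and 1 library per tissue and day. The title of the study gives fruit astringency as its subject. Reads assigned to genes numbered between 14899922, in peel at day 9, and 23740219, in flesh at day 6. The peel library of day 9 stood apart on principal component 1 (51.8% of the variance), at 124, against -79.6 to 36.6 for the others. In bulk tissue, fewer cells of a type and less RNA per cell cannot be told apart.

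The label of the tissues was set against wax genes, which the epidermis uses. Summed over 20 wax elongases and wax genes, levels were 299, 380 and 653 FPKM in peel at days 3, 6 and 9, against 200, 127 and 92.1 FPKM in flesh. The 3-ketoacyl-CoA synthase Csa3G144140, an enzyme of wax chain elongation, had 31.9, 55.4 and 61.7 FPKM in peel, against 0.698, 0.404 and 0.262 FPKM in flesh. Csa2G361630, another 3-ketoacyl-CoA synthase and slightly more abundant, had 14.2, 26.2 and 37.7 FPKM in peel, against 21.7, 27.9 and 29.0 FPKM in flesh. Of 17 wax genes tested 13 had a positive and 4 a negative difference between peel and flesh. The wax sums were higher in peel than in flesh on each day.

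The CASP-like genes divided into genes with more transcript in peel, genes with more in flesh and genes whose values overlapped. Csa3G151500 and Csa4G064080 were far higher in peel at days 6 and 9, and Csa2G179230 was moderately higher on each day. Csa1G004970 and Csa5G630810 were lower in peel than in flesh with no overlap between the tissues, as were 12.8% of all genes tested. For Csa1G004970 the day 3 values, 11.9 FPKM in peel and 12.7 FPKM in flesh, differed only within counting error. Csa6G445220, Csa6G141370, Csa1G181430 and Csa5G182050 had values that overlapped between the tissues, and Csa3G076530 was higher in peel at day 3 and lower at days 6 and 9.

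**Figure D1:**
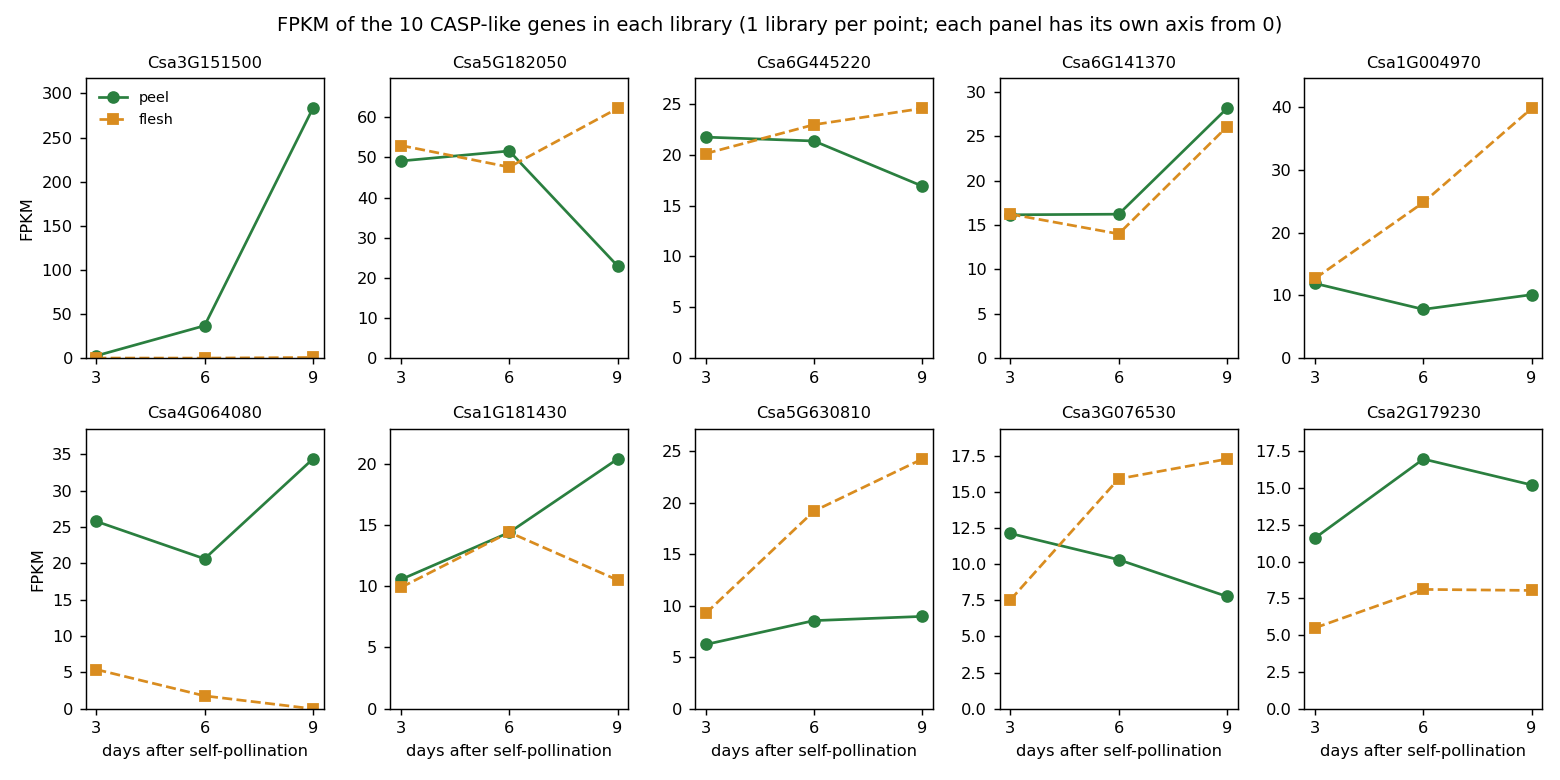
FPKM of the 10 genes against days after self-pollination, with circles and solid lines for peel and squares and dashed lines for flesh, 1 library per point and a separate axis from 0 in each panel. Csa3G151500 reached 283 FPKM in peel at day 9, while Csa1G004970 reached 39.8 FPKM in flesh at day 9.

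The order of the genes by mean level was weakly resolved. Csa3G151500 came first with 53.9 ± 113 FPKM (SD over the 6 libraries) and Csa5G182050 second with 47.8 ± 13.2 FPKM. Csa6G445220 followed with 21.3 ± 2.61, Csa6G141370 with 19.5 ± 6.01, Csa1G004970 with 17.8 ± 12.3 and Csa4G064080 with 14.6 ± 14.2 FPKM. The last were Csa1G181430 with 13.4 ± 3.98, Csa5G630810 with 12.7 ± 7.20, Csa3G076530 with 11.8 ± 4.08 and Csa2G179230 with 10.9 ± 4.50 FPKM. Of the 9 gaps between neighbours in this order, 1 exceeded the larger SD of its pair, that of 26.5 FPKM between Csa5G182050 and Csa6G445220. By peel libraries alone 7 of the 10 genes would have been chosen, by flesh libraries alone 7, and by both 4 (Csa5G182050, Csa6G445220, Csa6G141370 and Csa1G181430). Csa3G151500, Csa4G064080 and Csa2G179230 entered through peel, and Csa1G004970, Csa5G630810 and Csa3G076530 through flesh. The differences between the tissues, their slopes and the tests of these 6 genes use the values that chose them and are given as descriptions. Without the peel library of day 9, Csa3G151500 averaged 8.09 FPKM and ranked 12 in the family, so its place among the 10 rests on that library and its differences between days are descriptions too.

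Csa3G151500, named CASP-like protein 5, had 2.71, 36.8 and 283 FPKM in peel at days 3, 6 and 9, from 39, 484 and 2466 reads. In flesh it had 0.120, 0.0647 and 0.781 FPKM, from 2, 1 and 9 reads. Every peel value lay above every flesh value, and the 3 peel values increased with the day. The ratio of peel to flesh FPKM was 22.7 at day 3 (95% counting interval 5.87 to 194), 568 at day 6 (102 to 22491) and 362 at day 9 (191 to 794). These exact binomial intervals cover counting error only, and the widths at days 3 and 6 come from the 2 and 1 flesh reads. Within peel, day 9 was 104 times day 3 (76.2 to 147) and 7.70 times day 6 (6.98 to 8.50). The 9 flesh reads of day 9 stood against 2 at day 3, a ratio of 6.53 with an interval of 1.35 to 62.1.

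The rest of the peel-rich set behaved differently over time. Csa4G064080 had 25.8, 20.6 and 34.3 FPKM in peel at days 3, 6 and 9, against 5.40, 1.78 and 0 FPKM in flesh. Flesh reads numbered 107, 33 and 0, so the flesh values were lower on each later day while the peel values stayed between 20.6 and 34.3 FPKM. Peel was 4.77 times flesh at day 3 (95% counting interval 3.85 to 5.95) and 11.6 times at day 6 (8.09 to 17.2). At day 9 it was 158-fold higher with 3 reads taken for the flesh library, and the lower end of the 95% counting interval was 127. Within flesh, day 9 was 25.0-fold lower than day 3 with 3 reads taken for day 9. The 95% counting interval of that ratio, day 9 over day 3, was 0 to 0.0501. Its flesh mean was 2.39 FPKM.

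Csa2G179230 had 11.6, 17.0 and 15.2 FPKM in peel, against 5.50, 8.11 and 8.04 FPKM in flesh. The tissues did not overlap, and the ratio varied little, at 2.11, 2.09 and 1.89 over the 3 days. Its log2 difference between peel and flesh was 0.93 ± 0.16 (SE) in limma.

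A pair of genes had the opposite tissue pattern. Csa1G004970 had 11.9, 7.77 and 10.1 FPKM in peel at days 3, 6 and 9, against 12.7, 24.8 and 39.8 FPKM in flesh. At day 3 the tissues were level within counting error, with a ratio of 0.936 (95% counting interval 0.805 to 1.09). At day 9 peel was at 0.254 of flesh (0.214 to 0.301). Csa5G630810 had 6.24, 8.55 and 8.96 FPKM in peel, against 9.25, 19.2 and 24.2 FPKM in flesh. Peel stood at 0.674 of flesh at day 3, at 0.446 at day 6 and at 0.370 at day 9. In limma the log2 differences were -1.17 ± 0.40 (SE) for Csa1G004970 and -0.97 ± 0.23 (SE) for Csa5G630810. Both had their highest peel to flesh ratio at day 3 and their lowest at day 9.

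The genes whose values overlapped included the steadiest of the 10. Csa6G445220 had 21.7, 21.3 and 16.9 FPKM in peel, against 20.1, 22.9 and 24.5 FPKM in flesh. Its coefficient of variation over the libraries was 12.3%, and 7.06% of the 10940 genes averaging 10 FPKM or more had a lower one, where the median was 30.5%. Its log2 difference between peel and flesh was -0.17 ± 0.19 (SE, limma adjusted p = 0.611). At the other end, Csa3G151500 had a coefficient of 210%, with 99.7% of those genes below it. It averaged 10 FPKM or more only through peel at day 9 (8.09 FPKM without that library). The same library widens its spread, so this place is a description.

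Csa6G141370 had 16.2, 16.2 and 28.2 FPKM in peel, against 16.2, 14.0 and 26.1 FPKM in flesh, with both tissues highest at day 9. Its tissue difference was 0.10 ± 0.16 (log2, SE) and its difference between day 9 and day 3 was 0.71 ± 0.19, with a limma adjusted p of 0.127. Csa1G181430, named CASP-like protein 1, had 10.6, 14.4 and 20.4 FPKM in peel, against 9.90, 14.4 and 10.5 FPKM in flesh. The tissues were level at days 3 and 6, and peel was 1.94 times flesh at day 9 (95% counting interval 1.68 to 2.24). Its tissue difference in limma was 0.33 ± 0.25 on the log2 scale (SE, adjusted p = 0.449).

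Csa5G182050 had 49.1, 51.6 and 23.0 FPKM in peel, against 53.0, 47.6 and 62.2 FPKM in flesh. Its day 9 peel value was the lowest of the 6, and its tissue difference of -0.46 ± 0.35 (log2, SE; limma adjusted p = 0.448) became 0.0038 without the peel, or without the flesh, library of day 9. Csa3G076530 had 12.1, 10.3 and 7.76 FPKM in peel, against 7.53, 15.9 and 17.3 FPKM in flesh. The tissue that was higher thus differed between day 3 and the later days. Its ratio of peel to flesh was 1.61 at day 3 (95% counting interval 1.29 to 2.01), 0.648 at day 6 and 0.450 at day 9. Its log2 difference over the 3 days was -0.34 ± 0.37 (SE, limma) and 0.0205 with either of those libraries left out.

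**Figure D2:**
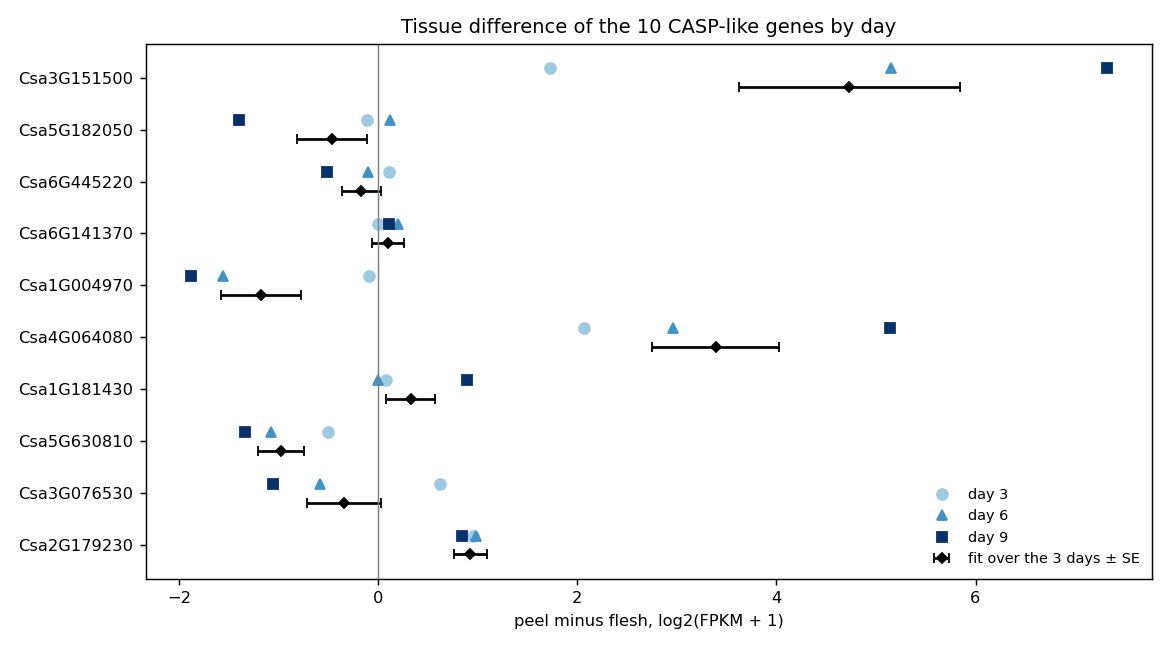
Peel minus flesh on the log2(FPKM + 1) scale for each of the 10 genes at day 3 (circles), day 6 (triangles) and day 9 (squares), with the limma estimate over the 3 days and its SE as a black diamond and bar. The daily values of Csa2G179230 lie within 0.84 to 0.98, while those of Csa3G151500 spread from 1.73 to 7.32.

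The tissue comparison was tested across the 17265 genes averaging 1 FPKM or more, among them all 10 genes. No tissue and day was replicated, so the spread is the departure of the days from a common tissue difference, with 2 residual degrees of freedom. limma called 0 of the 10 genes, beside 0.261% of all genes, at an adjusted p under 0.05. At an unadjusted p under 0.05 it had 3 higher (13% of all genes) and 2 lower in peel (12.3%), 5 of 10 beside 25.3% of all genes. On reads recovered from the deposited count columns edgeR called 1, beside 1.45% of all genes, and DESeq2 called 4, beside 17.3%. The edgeR call was Csa3G151500 (log2 difference 8.02), for which limma gave 4.73 ± 1.11 (SE). DESeq2 also called Csa4G064080, Csa2G179230 and Csa5G630810. For Csa4G064080 limma gave 3.39 ± 0.64 (SE). Those of the 10 genes that any tool called, and the 5 at an unadjusted p under 0.05, were among the 6 that entered through 1 tissue, so nothing is read from these counts. Without the peel library of day 9, which leaves days 3 and 6 to compare, the log2 differences were 3.44 for Csa3G151500, 2.51 for Csa4G064080 and 0.97 for Csa2G179230. Those of Csa1G004970 and Csa5G630810 were then -0.82 and -0.79, and that of Csa1G181430 was 0.04.

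Counted by size alone on the log2(FPKM + 1) scale, 1 of the 10 genes was higher in peel by 4-fold or more at day 3 (2.66% of all genes), 2 at day 6 (5.09%) and 2 at day 9 (7.03%). None of the 10 was 4-fold lower on any day, where all genes had 0.822%, 2.06% and 3.94%. The genes past the bound were Csa4G064080 on all 3 days and Csa3G151500 at days 6 and 9. At day 3 Csa3G151500, with a ratio of 22.7 without a pseudocount, was under the bound on this scale, and with a pseudocount of 0.1 the day 3 count was 2. Peel and flesh values did not overlap for 3 genes higher in peel (11.8% of all genes) and 2 lower (12.8%). These 5 genes too had entered through 1 tissue, and the counts describe the chosen genes only. The median log2 difference of the 10 genes was -0.03, as was that of all genes tested.

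The comparison of day 9 with day 3 gave 0 calls among the 10 genes in limma (0% of all genes) and 0 in edgeR (0.145%). At an unadjusted p under 0.05 limma had 2, Csa6G141370 and Csa5G630810, beside 24.9% of all genes. DESeq2 called 1, Csa3G151500 (log2 difference 5.83 ± 0.88, SE), beside 16.4% of all genes. For this gene limma gave 3.46 ± 1.36 (SE), between 1.21 and 5.72 with 1 library left out. As its day 9 level in peel chose it, the call is a description. The median log2 difference of the 10 genes was 0.45 and that of all genes 0.01. Between day 6 and day 3 all 3 tools called 0, beside 0% of all genes in limma and edgeR and 1.74% in DESeq2, and limma had 0 at an unadjusted p under 0.05 (7.06%). Within 1 tissue, Csa3G151500 in peel was the 1 gene of the 10 past 4-fold between days 3 and 6 (0.753% of all genes higher), between days 6 and 9 (3.79%) and between days 3 and 9 (5.2%). In flesh, Csa4G064080 was past 4-fold lower between days 3 and 9 (3.06%).

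Whether the tissue difference moved with the day was tested as a slope, the change of the peel minus flesh difference per 3 days. limma called 0 of the 10 genes (0% of all genes), with 4 at an unadjusted p under 0.05 beside 8.72%, and edgeR called 0 (0%). The 4 slopes were 2.79 ± 0.29 for Csa3G151500, 1.54 ± 0.30 for Csa4G064080, -0.89 ± 0.28 for Csa1G004970 and -0.84 ± 0.28 for Csa3G076530 (log2, SE). DESeq2 called Csa4G064080 (3.09 ± 0.76, SE), 1 of 10 beside 2.11% of all genes. All 4 had entered through 1 tissue, so these slopes describe the choice.

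Summed over the 10 genes, levels were 168, 205 and 448 FPKM in peel at days 3, 6 and 9, against 140, 169 and 213 FPKM in flesh. Csa3G151500 made up 1.61%, 18.0% and 63.2% of the peel sums and at most 0.366% of any flesh sum. Without it the other 9 genes summed to 165, 168 and 165 FPKM in peel, against 140, 169 and 213 FPKM in flesh. The peel sum without this gene thus varied by under 4 FPKM over the days. The 10 genes held between 62.2% and 80.9% of the family's FPKM in the 6 libraries.

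**Figure D3:**
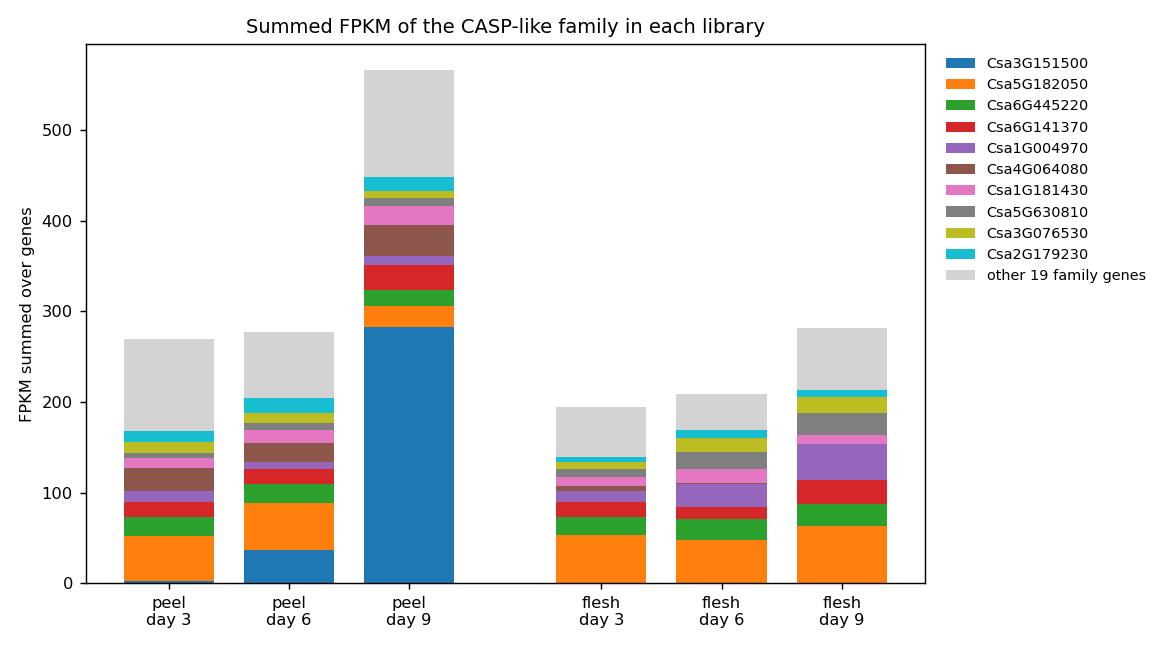
FPKM summed over the CASP-like family in each library, peel on the left and flesh on the right, with 1 colour per gene. The darker grey is Csa5G630810, and the light grey at the top is the other 19 family genes. The blue part, Csa3G151500, is 283 FPKM in peel at day 9 and under 1 FPKM in each flesh library.

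Correlations between the 10 genes over the 6 libraries, whose points share tissue, day and depth, were laid out in an order set by hand. In that order blocks of 4 and 5 genes had positive r throughout, and 1 gene was in neither. Csa1G181430 fell in the block of the peel-rich genes, and Csa5G182050, Csa6G445220 and Csa3G076530 in that of the flesh-rich genes. On log2(FPKM + 1), Pearson's r was 0.91 between Csa1G004970 and Csa5G630810, and 0.85 between Csa3G151500 and Csa2G179230. Csa4G064080 had r = -0.92 with Csa5G630810. Csa5G182050 and Csa6G445220 had r = 0.89. Csa6G141370 was placed in neither set, its r with each of the other 9 genes lying between -0.47 and 0.52. Its r of 0.52 with Csa3G151500 exceeded the lowest r within either block (0.46 and 0.34). Csa3G151500, Csa4G064080 and Csa2G179230 had entered through peel, and Csa1G004970, Csa5G630810 and Csa3G076530 through flesh. The blocks therefore partly restate the choice and are a description.

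**Figure D4:**
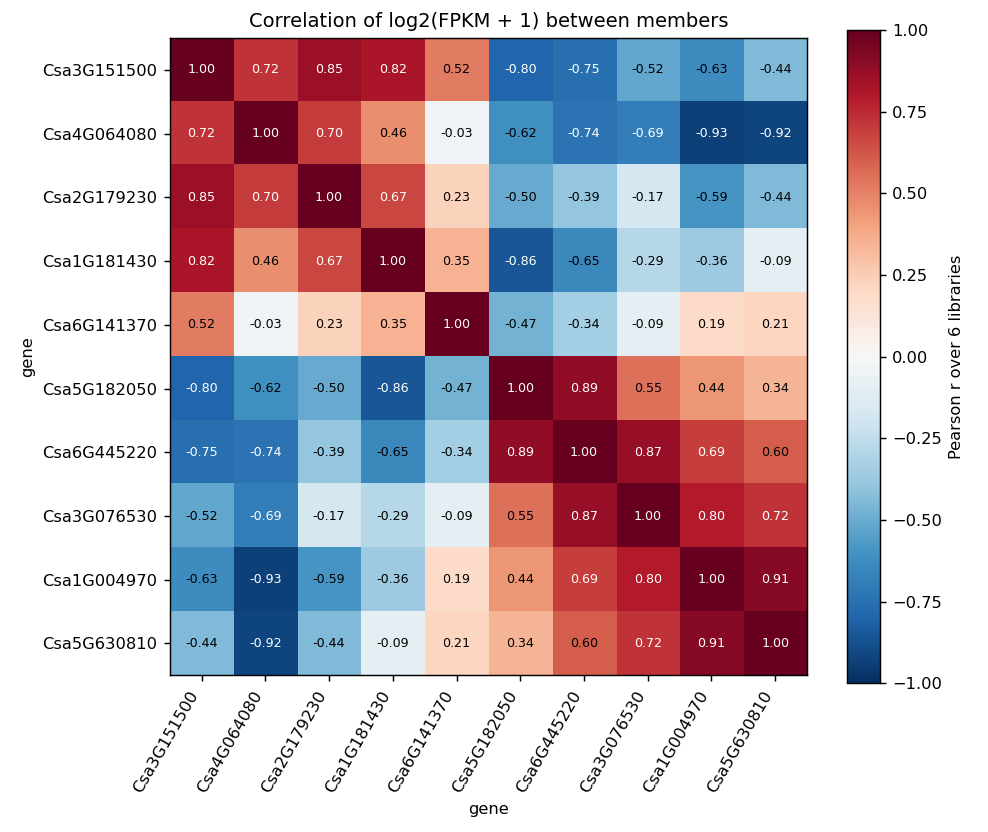
Pearson's r of log2(FPKM + 1) over the 6 libraries for each pair of the 10 genes, red for positive and blue for negative values. The order of the genes was set by hand. In it the 4 genes from Csa3G151500 to Csa1G181430 form a positive block with r between 0.46 and 0.85. The 5 genes from Csa5G182050 to Csa5G630810 form another with r between 0.34 and 0.91.

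Among 13789 genes of other families that averaged 5 FPKM or more, the 3 most like Csa3G151500 by this measure were found over the 6 libraries. A Sucrose transporter (Csa5G469030), of a family that loads sucrose across membranes, had r = 0.999 within a far narrower range. It had 14.6, 17.8 and 21.4 FPKM in peel, against 13.2, 13.0 and 13.4 FPKM in flesh. An Ankyrin repeat-containing protein (Csa6G302160) had r = 0.998, with 6.23, 13.2 and 23.2 FPKM in peel, against 4.27, 3.95 and 5.49 FPKM in flesh. An Unknown protein gene (Csa2G173020) had r = 0.996, with 1.61, 15.6 and 59.9 FPKM in peel, against 0, 0.138 and 0.141 FPKM in flesh. In all 13 of the genes searched had an r of at least 0.99. The measure uses the peel values that chose Csa3G151500, and its flesh values rest on 2, 1 and 9 reads. Csa2G173020 passed the limit of 5 FPKM through peel. As the best of 13789 genes over 6 points, these likenesses are a description.

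Csa3G151500 lies beside 2 other family genes on chromosome 3, on a build that the sources used here do not give. The table puts Csa3G151480 at 10439033 to 10441717, Csa3G151490 at 10447875 to 10449999 and Csa3G151500 at 10451910 to 10453589, with no other gene of the table between them. The middle gene, also named CASP-like protein 5, had the reverse course in peel. Csa3G151490 had 22.7, 9.998 and 0.342 FPKM in peel at days 3, 6 and 9, from 437, 177 and 4 reads, against 4.68, 1.16 and 0 FPKM in flesh. In peel its day 9 level was 66.4-fold lower than its day 3 level, where that of Csa3G151500 was 104-fold higher. Csa3G151480 had 0.0602, 0.204 and 2.40 FPKM in peel, from 1, 3 and 25 reads, and 0.0496, 0 and 0 FPKM in flesh. For Csa3G151490 the difference of day 9 from day 3 over both tissues was -3.32 ± 0.56 (log2, SE, limma adjusted p = 0.0685). The adjusted p was 0.0581 in edgeR and 4.93e-09 in DESeq2, which called 16.4% of all genes. This gene was named with its values seen, so these are descriptions. How like the sequences of the 3 genes are could not be read from the files, and reads of similar copies may be assigned to either. The next gene outward, Csa3G151510, an Unknown protein, had 3.02, 8.25 and 3.19 FPKM in peel, against 2.08, 3.35 and 2.06 FPKM in flesh.

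**Figure D5:**
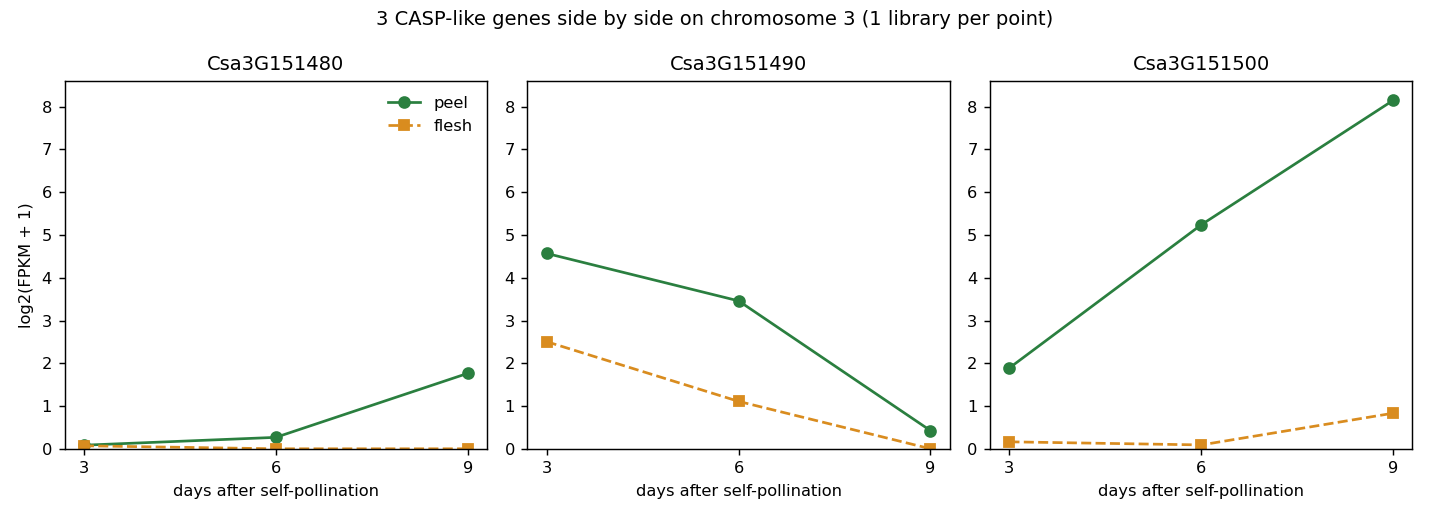
Levels of the 3 neighbouring CASP-like genes on chromosome 3 on the log2(FPKM + 1) scale against days after self-pollination, circles for peel and squares for flesh, 1 library per point. In peel Csa3G151490 is highest at day 3, with 22.7 FPKM, and Csa3G151500 at day 9, with 283 FPKM.

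A second run of 3 family genes lies on chromosome 5, between 17998744 and 18010855, and a pair lies on chromosome 6 between 12766138 and 12768351. None of these 5 genes is among the 10. The middle gene on chromosome 5, Csa5G515020, named CASP-like protein 12, had 5.87, 1.26 and 30.7 FPKM in peel, against 0.422, 0.517 and 2.68 FPKM in flesh. Both tissues had their highest level at day 9. Csa5G515010 beside it had 1.36, 0.986 and 3.45 FPKM in peel, against 0.127, 0 and 0 FPKM in flesh, and its mean of 0.987 FPKM was under the limit of the test. The third, Csa5G515030, had 2 reads in peel at day 3 and 0 in every other library.

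Of the other 19 family genes 12 passed the limit of 1 FPKM. The 1 family gene that limma called, beside 0.261% of all genes, was Csa2G048830, named CASP-like protein 3 and higher in peel. It had 10.3, 12.4 and 17.4 FPKM in peel, from 169, 186 and 178 reads, and 0 reads in each of the flesh libraries. With 3 reads taken for each flesh library, peel was 66.5-fold higher at day 3, 74.8-fold at day 6 and 79.2-fold at day 9. The lower ends of the counting intervals for Csa2G048830 were 53.5 at day 3, 60.3 at day 6 and 63.8 at day 9. Its adjusted p for peel against flesh was 0.045 in limma, 0.0597 in edgeR and 4.55e-13 in DESeq2. The fitted log2 difference of 3.82 ± 0.26 (SE) depends on the pseudocount. As it passed the limit of 1 FPKM through peel alone, where it is high, the call is a description.

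More family genes outside the 10 differed at least 4-fold between the tissues on single days. Of 22 family genes tested, the 10 included, 4 were higher in peel at day 3 (2.66% of all genes), 4 at day 6 (5.09%) and 6 at day 9 (7.03%). Those lower in peel numbered 0, 0 and 1, beside 0.822%, 2.06% and 3.94% of all genes. Some passed the limit of 1 FPKM through 1 tissue, so these counts are a description. Csa7G394000 had 18.0, 13.3 and 4.33 FPKM in peel against 10.02, 4.10 and 0.0646 FPKM in flesh, lower on each later day in both tissues. Csa7G047980 had 3.36, 1.83 and 8.71 FPKM in peel against 1.56, 0.400 and 0 FPKM in flesh. Csa3G730790 was the 1 family gene at least 4-fold lower in peel on any day, with 2.07, 0.877 and 1.13 FPKM in peel against 0.450, 1.16 and 16.3 FPKM in flesh. Its day 9 flesh value rested on 250 reads, against 10 at day 3.

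The 3 genes named after the Casparian strip itself were low. Csa3G777660 had 5.59 and 0.261 FPKM in peel at days 3 and 6, from 98 and 4 reads, and 0 reads in the other 4 libraries. Csa5G636650 was between 0.141 and 0.656 FPKM in every library, and Csa6G453800 was at or under 0.264 FPKM. The 2 had at most 6 reads in any library.

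The partners of CASPs at the Casparian strip were read as lists of product names. Dirigent proteins, which guide the coupling of lignin precursors, had a median log2 difference between peel and flesh of 0.32 over 4 tested of 9 genes. The most abundant, Csa4G293090, had 39.0, 39.9 and 28.9 FPKM in peel, against 31.8, 29.1 and 32.8 FPKM in flesh. Respiratory burst oxidases, which make superoxide, had a median of -0.12 over 5 genes. The leading one, Csa3G845500, had 120, 136 and 125 FPKM in peel, against 93.9, 30.3 and 105 FPKM in flesh. The next, Csa6G301070, went the other way, with 10.5, 8.89 and 5.11 FPKM in peel, against 13.2, 17.6 and 38.9 FPKM in flesh. Peroxidases, which oxidise lignin precursors in the wall, had a median of 0.47 over 31 tested of 63. Within them, Csa4G285780 had 173, 91.8 and 1016 FPKM in peel, against 14.2, 2.38 and 8.46 FPKM in flesh; its limma estimate was 5.02 ± 0.65 on the log2 scale (SE, adjusted p = 0.063). The most abundant peroxidase, Csa1G062960, had 1359, 896 and 818 FPKM in peel, against 1062, 1125 and 2247 FPKM in flesh.

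Laccases, which also oxidise lignin precursors, had a median of 0.26 over 18 genes and monolignol enzymes, which make those precursors, one of 0.31 over 33. Laccase-22, Csa5G160220 in the table, stood at 153, 140 and 15.0 FPKM in peel, against 188, 205 and 52.2 FPKM in flesh. The next laccase, Csa2G348200, went the other way, with 38.0, 87.2 and 47.9 FPKM in peel, against 21.8, 40.7 and 22.3 FPKM in flesh. The Cinnamoyl-CoA reductase Csa4G664500 had 76.6, 66.9 and 119 FPKM in peel, against 60.5, 51.8 and 101 FPKM in flesh. The next monolignol gene, Csa3G732470, went the other way, with 57.0, 28.2 and 100 FPKM in peel, against 65.7, 53.5 and 161 FPKM in flesh. In these 5 lists limma called 0 genes in each, beside 0.261% of all genes. At an unadjusted p under 0.05 there were 1 higher among the dirigent proteins and 0 among the oxidases. There were 9 higher and 4 lower among the peroxidases, 2 and 4 among the laccases, and 9 and 3 among the monolignol enzymes, beside 13% and 12.3% of all genes. edgeR called 1 peroxidase and 1 monolignol gene, both higher in peel, and DESeq2 called 15 and 13 genes in those lists and 4 laccases, beside 1.45% of all genes in edgeR and 17.3% in DESeq2.

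Enzymes of the fruit surface were read the same way. The wax list had a median of 1.93 over 17 tested genes, and limma called 2, both 3-ketoacyl-CoA synthases higher in peel, beside 0.261% of all genes. Both were under 1 FPKM in each flesh library and passed the limit of 1 FPKM through peel, so these calls are descriptions. The suberin and cutin list had a median of 0.31 over 14 tested of 19. In it limma had 4 genes higher (13% of all genes) and 2 lower in peel (12.3%) at an unadjusted p under 0.05. Of the 14 genes limma called 0, edgeR 2 and DESeq2 4, beside 0.261%, 1.45% and 17.3% of all genes. Its most abundant gene, Csa3G812100, is a 1-acyl-sn-glycerol-3-phosphate acyltransferase, an enzyme of membrane lipid synthesis caught by its name. The second, the Fatty acyl-CoA reductase Csa6G151810, which makes fatty alcohols, had 0.285, 7.06 and 178 FPKM in peel at days 3, 6 and 9, against 3.11, 0.506 and 0.341 FPKM in flesh. Its highest value was in peel at day 9, while at day 3 it was higher in flesh than in peel.

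Markers of other tissues that either dissection could hold also differed between tissues and days in their sums. The 36 vascular and phloem genes summed to 12643, 8877 and 14706 FPKM in peel, against 1550, 5075 and 18192 FPKM in flesh, and the Phloem filament protein Csa7G067350 to 5752, 3241 and 4732 FPKM in peel, against 517, 1304 and 5655 FPKM in flesh. The 45 photosynthesis genes summed to 3174, 2009 and 1193 FPKM in peel, against 3094, 2954 and 2142 FPKM in flesh. The 54 seed and ovule genes summed to 2408, 1954 and 5387 FPKM in peel, against 1911, 1622 and 4180 FPKM in flesh. Among them Csa3G218170, a Legumin-like protein of the seed storage kind, had 10.7, 10.97 and 4.81 FPKM in peel, against 112, 123 and 127 FPKM in flesh (limma adjusted p = 0.0471). The Late embryogenesis abundant gene Csa3G121560, of a family found in maturing seeds, had 155, 246 and 320 FPKM in peel, against 5.45, 3.90 and 64.1 FPKM in flesh. The most abundant gene of the list, Csa7G398090 of the same family, had 1975, 1472 and 4876 FPKM in peel, against 1413, 1114 and 3547 FPKM in flesh. This gene made up most of the seed and ovule sum in every library, so the sums mainly follow it. The 16 genes with epidermis or trichome names, mostly trichome birefringence-like wall genes, summed to between 219 and 239 FPKM in peel and between 249 and 407 FPKM in flesh. Listed at 0 in every library were 1 seed gene and 0 of the vascular, photosynthesis, epidermis and wax lists. The median log2 differences between peel and flesh were -0.09 for the vascular, -0.28 for the photosynthesis, -0.18 for the seed and -0.42 for the epidermis and trichome list. limma called 0 genes in each of these lists but the seed list, where the legumin-like gene was called lower, beside 0.261% of all genes. At an unadjusted p under 0.05 it had 2 higher and 3 lower vascular, 5 and 11 photosynthesis, 2 and 6 seed, and 0 and 2 epidermis and trichome genes, beside 13% and 12.3% of all genes. The part of the cell makeup of the peel and flesh samples in the CASP-like values was not tested.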

How the data were processed

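RNA of peel and flesh was sequenced in 6 libraries, each from 3 mixed fruits, per the labels' protocols. The submitters' processing notes name TopHat, with no version, and Cufflinks 2.1.1; the sources used here give neither genome build nor annotation nor strand setting. The authors deposited FPKM per gene and library. They also deposited count columns, a signal that is not whole: dividing each library by its step, between 0.565 and 1.07, gave reads whole within 0.05 for 99.7% to 99.9% of values. Depth sets the counting error; fruit-to-fruit error cannot be estimated.

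Tests used R 4.3.3 and limma 3.58.1 on log2 values with a pseudocount of 1 FPKM, with an intensity trend, for genes averaging 1 FPKM or more. Tissue and day (as categories) were the terms, and slopes came from tissue by numeric day. p-values were two-sided, adjusted by Benjamini-Hochberg over all 17265 genes and called under 0.05. A fold on this scale understates low genes. edgeR 4.0.16 (quasi-likelihood) and DESeq2 1.42.0 ran on the recovered reads of the same genes. Other alternatives were a pseudocount of 0.1 or 5, filtering at 5 FPKM or not at all, upper-quartile and quantile scaling, no trend, no day term, day as a number and each library left out. Scripts were tested on simulated data.

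The 10 genes were found by product name and mean FPKM, and lists by product name; a list of receptor kinases of the barrier pathway matched 0 genes. The root list is not a marker of root: its leading genes are 2 genes named RCD1, a stress regulator, and its median difference was -0.31 over 6 genes. Named genes are the 10, family genes past 4-fold or the test, and from each list the 2 most abundant and up to 2 past the test, of which the text prints a part. The choice of chromosome neighbours and of genes named after the Casparian strip was made with their values seen. The genes and lists were chosen with earlier results of these data known. A reference table of gene names shared 0 identifiers with the deposited table and was not used.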

Additional observations from a re-analysis of the deposited data

Results flagged for a closer look

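For 3 of the 10 genes both later days moved one way from day 3 in peel and the other way in flesh. Csa3G076530 had lower peel values, by 0.21 and 0.58 log2 units at days 6 and 9, and higher flesh values, by 0.99 and 1.10. Csa1G004970 had lower peel values, by 0.56 and 0.21, and higher flesh values, by 0.91 and 1.57. Csa6G445220 had lower peel values, by 0.02 and 0.34, and higher flesh values, by 0.18 and 0.28. The slope of the peel minus flesh difference per 3 days was -0.8397 ± 0.28 for Csa3G076530, -0.8940 ± 0.28 for Csa1G004970 and -0.3094 ± 0.23 for Csa6G445220 (log2, SE). None of the 3 slopes passed the test of the difference in limma, edgeR or DESeq2, and Csa3G076530 and Csa1G004970 were among the 10 through their flesh levels, so theirs are descriptions. In each gene 1 of the 2 peel values lay within counting error of day 3. Csa3G076530 at day 6 was at 0.850 of day 3 (95% counting interval 0.682 to 1.06), Csa1G004970 at day 9 at 0.850 (0.699 to 1.03) and Csa6G445220 at day 6 at 0.983 (0.852 to 1.13).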

How the results depend on the processing

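The count of the 10 genes called for peel against flesh was 0 in limma and stayed at 0 with other pseudocounts, filters, scalings, no trend and no day term. It was 1 in edgeR (Csa3G151500), 4 in DESeq2 and 1 with day as a number (Csa4G064080). For day 9 against day 3 and for the slope it was 0 in limma and edgeR and 1 in DESeq2. With each library left out these 3 counts ranged from 0 to 0, with 1 residual degree of freedom in each fit, so these fits say little about stability. The number of genes at least 4-fold apart at day 3 was 1; it was 2 with a pseudocount of 0.1 and 0 with 5. At day 6 it was 2, and 1 with a pseudocount of 5.

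Of 320 refitted differences of single genes 299 kept direction and side of the threshold, 7 newly passed and 14 changed sign, none of them called. Part of this tally was fixed in advance. The filter and the trend cannot move an estimate, and in this design the day term cannot move that of the tissue. Leaving out peel or flesh of the same day gives the same tissue estimate. The tally is therefore no measure of stability. Without either library of day 9 the peel minus flesh differences of Csa5G182050, Csa6G445220 and Csa3G076530 were 0.0038, 0.0033 and 0.0205, against -0.46, -0.17 and -0.34 with all libraries; over the left-out libraries their lowest values were -0.75, -0.31 and -0.82. For day 9 against day 3, that of Csa6G445220 (-0.03) was 0.0113 in DESeq2, and ranged from -0.29 to 0.22 over the left-out libraries (0.1725 without peel day 3, 0.2239 without peel day 9). There, Csa5G182050 ranged from -1.12 to 0.28, Csa1G004970 from -0.13 to 1.49, Csa3G076530 from -0.46 to 0.98 and Csa4G064080 from -2.45 to 0.18. Csa3G151500 ranged there from 1.21 to 5.72 and for peel minus flesh from 3.44 to 6.23. The causes were not tested. Upper-quartile scaling moved the median of all genes by -0.14 between day 9 and day 3. No paired analysis was possible beyond the matching of peel and flesh by day that the day term makes, because each tissue and day had 1 library. Genes with under 10 reads in flesh have ratios that depth limits.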

Other observations

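Tetraspanins, another family of small proteins that cross the membrane several times, had mostly lower levels in peel. Of 11 tested genes 10 had a negative difference between peel and flesh, with a median of -0.95 log2 units, where over all 17265 genes 9039 were negative and the median was -0.03. limma called 1, Tetraspanin-3 (Csa1G089490), at 0.547, 1.32 and 0.481 FPKM in peel, against 11.4, 24.9 and 13.0 FPKM in flesh (log2 difference -3.24 ± 0.21, SE; adjusted p = 0.045). Tetraspanin-3 passed the limit of 1 FPKM through flesh, where it is high, so the call is a description. Over all genes limma called 0.261%. At an unadjusted p under 0.05 there were 8 lower and 0 higher, beside 12.3% and 13% of all genes. The most abundant, Csa1G287020, was the 1 gene with a positive difference, 0.05 ± 0.30 (SE).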
